A study of Mus musculus with 12 samples.

Results

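The genes described here are 10 transcripts read as markers of macrophages and of antigen presentation by major histocompatibility complex (MHC) class II, measured in the whole pituitary gland. They were taken by name from a table of 18497 named genes: H2-Ab1, H2-Aa, H2-Eb1 and Cd74 for class II, and Csf1r, Cd68, Aif1, Ptprc, C1qa and Mrc1 for macrophages and leukocytes. The glands came from 12 adult wild-type males of the strain given as F1 C57BL/6Jx129S1/SvlmJ. As zygotes, 6 of them had been microinjected with nuclease-free water (vehicle), and the other 6 with a let-7f-5p mimic, a chemically stabilised copy of that microRNA, in an amount called stress-relevant by the labels. All embryos were cultured in KSOM medium and carried by CD1 recipient dams. The labels give neither the litter nor the dam of a male, so the males of a group may have shared one. Each gland gave 1 library of rRNA-depleted total RNA, and values are normalised read counts. Libraries are called vehicle 1 to 6 and mimic 1 to 6.

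MHC class II molecules are pairs of an alpha and a beta chain that show peptides from engulfed material to CD4 T cells. They are assembled on the invariant chain, Cd74, and are made mainly by macrophages, dendritic cells and B cells, under the transactivator Ciita, which interferon gamma induces. Tissue macrophages depend on the receptor Csf1r, are a regular resident of the pituitary, and in its posterior lobe resemble the microglia of the brain. In RNA from a whole gland, fewer cells of a type and less RNA per cell cannot be told apart.

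The injected microRNA and the promoters of 3 of the genes are shown because they hold the letters that the later comparisons refer to. The mature let-7f-5p, with its seed (bases 2 to 8) in capitals, is the same in RefSeq (GRCm38.p6), in both of its gene copies, and in the labels of the mimic.
let-7f-5p: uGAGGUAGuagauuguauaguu
The class II promoters hold a Y box, a CCAAT-type element known from class II promoters, and in H2-Aa also a cyclic AMP response element. The windows run from 250 bases before to 50 bases after the start of the gene, are from RefSeq on GRCm38.p6, and are printed along the gene's own strand. Capitals mark the Y box CTGATTGG in both windows and, in H2-Aa, also the response element TGACGTCA.
H2-Aa, chr17:34287774-34288073, minus strand: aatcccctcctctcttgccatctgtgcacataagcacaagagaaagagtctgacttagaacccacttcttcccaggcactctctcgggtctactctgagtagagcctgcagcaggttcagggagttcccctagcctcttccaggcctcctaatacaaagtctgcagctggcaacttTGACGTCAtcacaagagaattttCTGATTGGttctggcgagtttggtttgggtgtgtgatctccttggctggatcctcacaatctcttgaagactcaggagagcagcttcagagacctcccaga
H2-Eb1, chr17:34305617-34305916, plus strand: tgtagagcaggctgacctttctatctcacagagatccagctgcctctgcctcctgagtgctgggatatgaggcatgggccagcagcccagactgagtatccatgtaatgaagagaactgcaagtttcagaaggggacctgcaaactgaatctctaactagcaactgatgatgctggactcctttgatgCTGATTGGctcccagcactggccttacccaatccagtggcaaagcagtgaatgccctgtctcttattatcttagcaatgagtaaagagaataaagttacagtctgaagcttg
The window of Mrc1 is shown beside them as that of a macrophage gene, with the letters TTCCTC in capitals, which read GAGGAA, a core bound by PU.1-type factors, on the other strand.
Mrc1, chr2:14229164-14229463, plus strand: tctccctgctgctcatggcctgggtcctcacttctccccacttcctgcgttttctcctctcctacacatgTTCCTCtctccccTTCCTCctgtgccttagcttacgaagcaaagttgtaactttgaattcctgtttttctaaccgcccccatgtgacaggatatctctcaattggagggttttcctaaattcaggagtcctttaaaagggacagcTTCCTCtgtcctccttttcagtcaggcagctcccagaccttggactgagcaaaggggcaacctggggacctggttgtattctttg

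The Y box began 51 bases before the start of H2-Aa and 62 bases before that of H2-Eb1. Of 32851 promoter windows in the table, 4.1% held its letters on either strand. Its inner letters ATTGG, which lie inside every Y box, were in 37.4% of the windows. They were also in the window of Mrc1, 80 bases before the start on the gene's own strand. In that of Cd68 they began 230, 84 and 60 bases before the start, on the opposite strand. The response element of H2-Aa began 74 bases before the start, and its letters were in 1.79% of windows. The letters GAGGAA were in 28.3%, and in Mrc1 they began 180, 167 and 35 bases before the start, all on the strand opposite to the gene. The motifs were chosen with the windows in view, and a match is a description of letters, not of a bound site. The 7 letters that pair with the let-7 seed, CTACCTC, were in the 3' UTR of 1407 of 15261 tested genes (9.22%). They were in none of the 9 of these genes that had a 3' UTR in the annotation, and the transcript taken for Cd68 had none.

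All 10 genes were well above the filter on low values. On the scale of normalised counts per kilobase of exon, Cd74 was the most abundant at 1675, a level above that of 96.2% of the 17107 genes with a length. H2-Aa followed at 1073, and then H2-Eb1 at 487 and H2-Ab1 at 486, which did not differ beyond their spread. C1qa, a chain of the complement component that starts the classical pathway, stood at 304 per kilobase and Csf1r at 159. The lowest levels were those of Cd68, a lysosomal glycoprotein of phagocytes, at 77.9, of Ptprc, the pan-leukocyte antigen CD45, at 57.8, of Aif1, the calcium-binding protein IBA1, at 52.7, and of Mrc1, the mannose receptor CD206, at 24.9. The spreads of Ptprc and Aif1 overlapped.

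Vehicle 1, 4 and 6 stood apart from the other 9 glands in having low levels of posterior and intermediate lobe markers. Many of the log2 fold changes and correlations, but not all that move without them, are given both ways. None of the 10 genes differed between the groups past the threshold. Limma-trend with Benjamini-Hochberg adjustment over 18390 genes called none of these 10, against a background of 0.0% over all genes tested, and 879 genes had an unadjusted p under 0.05. edgeR's quasi-likelihood test, run on 10 of the 12 libraries, also called none of the 10, against a background of 0.0%, with 607 genes at an unadjusted p under 0.05. DESeq2 on the same 10 libraries called none of the 10 genes, against a background of 0.0163%, which is 3 genes: Kit, Hmcn2 and Uba7.

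The 4 class II genes had lower means in the mimic group, by amounts that did not pass the threshold. H2-Ab1, the beta chain of the I-A molecule, ranged in the vehicle glands from 496 to 842 normalised counts with a median of 666. In the mimic glands it ranged from 461 to 623 with a median of 507. Vehicle 6, 3 and 4 were the high glands, vehicle 1, 2 and 5 lay within the range of the mimic glands, so the groups overlapped. The means were 655 ± 139 and 523 ± 61.1 (SD, n = 6 each), and the log2 fold change of mimic against vehicle was -0.30 (standard error 0.13, 95% interval -0.58 to -0.02; adjusted p by limma = 0.976).

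H2-Aa, the alpha chain of I-A, had a lowest, median and highest count of 966, 1331 and 1629 in the vehicle glands. In the mimic glands these were 958, 1040.0 and 1282. Vehicle 6, 3 and 4 were again the highest, and vehicle 2 lay close to the lowest mimic gland. Its log2 fold change was -0.27 (standard error 0.12; adjusted p by limma = 0.976). H2-Eb1, the beta chain of I-E, ranged from 693 to 1144 in the vehicle glands with a median of 860, and from 658 to 837 in the mimic glands with a median of 733. Its highest gland was vehicle 6, its lowest vehicle gland was vehicle 2, and the groups overlapped. The log2 fold change was -0.25 (standard error 0.11; adjusted p by limma = 0.976). H2-Eb2 is a paralogue of H2-Eb1, and how the counting treated reads that match both was not measured. H2-Ea, the gene of the alpha chain of I-E, was not among the named genes, so the RNA of H2-Eb1 is not read here as a sign of I-E.

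Cd74, the invariant chain, ranged from 2122 to 3162 counts in the vehicle glands with a median of 2438, and from 1960 to 2424 in the mimic glands with a median of 2173. Vehicle 6 was the highest and vehicle 2 the lowest vehicle gland, as for H2-Eb1. The means were 2538 ± 357 and 2206 ± 182 (SD, n = 6 each). The log2 fold change was -0.20 (standard error 0.09; adjusted p by limma = 0.976). For each of the 4 genes, all 6 mimic glands lay below the vehicle mean, as they also did for the hormone genes Prl and Tshb. The share of all tested genes with all 6 mimic glands on 1 side of the vehicle mean was not measured, here and below. At an unadjusted limma p under 0.05 with a lower mimic mean, 3 of the 4 were counted, against a background of 2.49% over all genes. H2-Aa was the one outside, at an unadjusted p of 0.0513. The 4 genes varied together over the glands, so they do not count as 4 separate results. None of the 4 reached that level without vehicle 3, vehicle 6, mimic 5 or mimic 6, with the replicate number as a block, or in any tool on the 10 libraries with recovered reads. Without vehicle 1, 4 and 6 together, the log2 fold changes of H2-Ab1, H2-Aa, H2-Eb1 and Cd74 were -0.24, -0.14, -0.13 and -0.12.

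**Figure D1:**
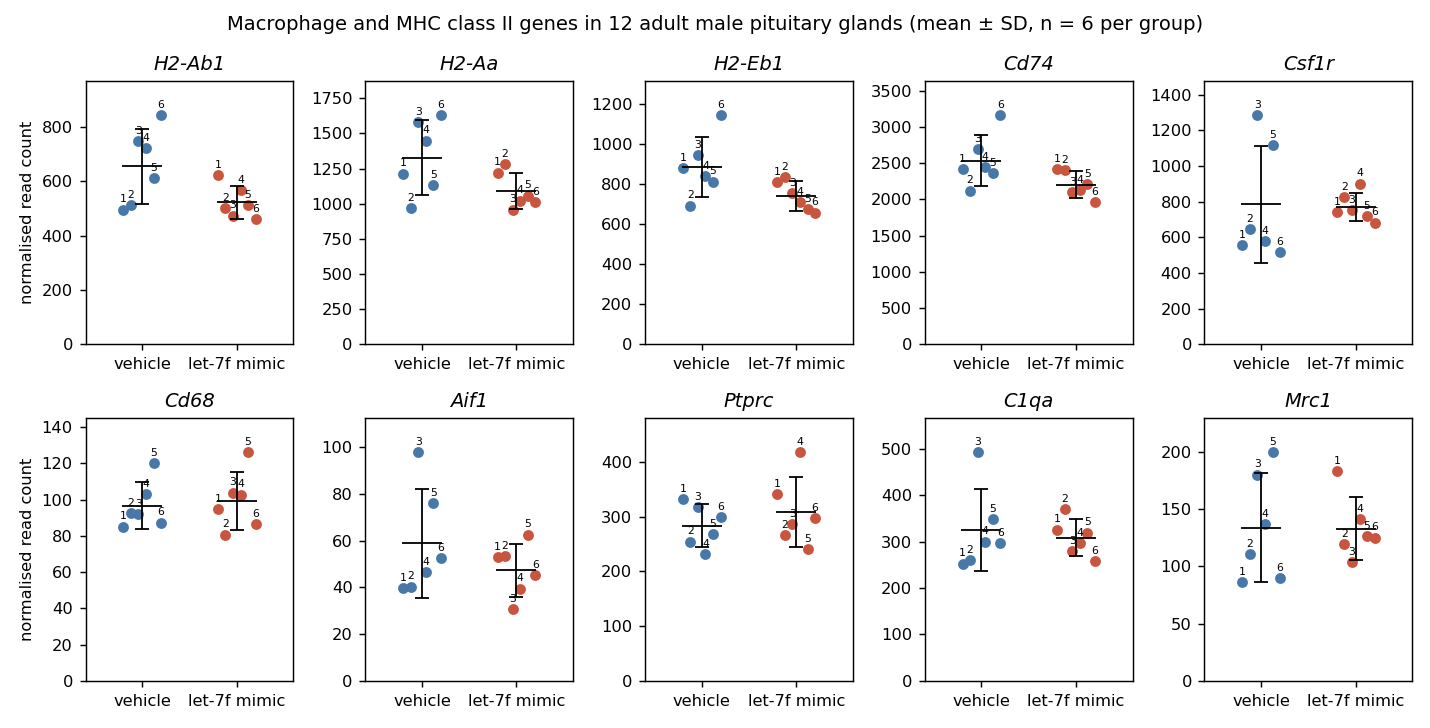
Normalised read count (vertical axis, from 0) of each of the 10 genes in the vehicle and let-7f mimic glands. Each point is 1 gland with its replicate number, and the bars are the mean ± SD of 6 glands. The groups overlap for every gene, and vehicle 3 and 5 stand high for Csf1r and Aif1, while vehicle 6 is highest for the 4 class II genes.

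Of the 6 macrophage and leukocyte genes, Csf1r, C1qa, Aif1 and Mrc1 varied more between vehicle than between mimic glands, and Cd68 and Ptprc varied less. None of the 6 passed the test between the groups. The 4 class II genes also varied more between vehicle glands, as for H2-Ab1, with a coefficient of variation of 21.2% against 11.7%. For H2-Aa, H2-Eb1 and Cd74 it was 19.9%, 17.1% and 14.1% against 11.8%, 9.84% and 8.24%. Csf1r, the receptor for colony-stimulating factor 1 and interleukin 34, ranged from 518 to 1284 counts in the vehicle glands with a median of 614. In the mimic glands it ranged from 683 to 901 with a median of 748. Vehicle 3 (1284) and vehicle 5 (1119) stood above all mimic glands, and the other 4 vehicle glands stood below all of them. The coefficient of variation was 42.1% in the vehicle and 10.3% in the mimic group, where counting error alone gives about 3.5%. The log2 fold change was 0.07 (standard error 0.20, 95% interval -0.37 to 0.51; adjusted p by limma = 0.984), and without vehicle 3 it was 0.23.

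C1qa ranged from 253 to 492 counts in the vehicle glands with a median of 298, and from 258 to 371 in the mimic glands with a median of 307. Vehicle 3 stood apart at the top, and the other 11 glands lay between 253 and 371. Its log2 fold change was -0.05 (standard error 0.15; adjusted p by limma = 0.985), and it was 0.08 without vehicle 3 and -0.21 without vehicle 1, 4 and 6. For C1qb and C1qc, the other chains of that component, the log2 fold changes were -0.05 and -0.07.

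Aif1 ranged from 39.8 to 97.9 counts in the vehicle glands with a median of 49.6, and from 30.7 to 62.6 in the mimic glands with a median of 49.1. Vehicle 3 and vehicle 5 (76.2) were above all mimic glands. Its log2 fold change was -0.26 (standard error 0.24; adjusted p by limma = 0.976), which was -0.10 without vehicle 3, -0.53 without vehicle 1, 4 and 6 and -0.45 with the posterior lobe level as a covariate. Mrc1 ranged from 86.0 to 200 counts in the vehicle glands with a median of 124, with vehicle 5 and 3 highest and vehicle 1 and 6 lowest. In the mimic glands it ranged from 104 to 183 with a median of 126, with mimic 1 above the rest. Its log2 fold change was 0.04 (standard error 0.21; adjusted p by limma = 0.992).

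Cd68 and Ptprc did not follow these glands. Cd68 ranged from 85.1 to 120 counts in the vehicle and from 80.7 to 126 in the mimic glands, with vehicle 5 and mimic 5 highest. Its spread of 13.5% in the vehicle group was close to the 10.1% that counting alone gives. Ptprc ranged from 231 to 331 and from 240 to 418 counts, with mimic 4 highest and vehicle 1 the highest vehicle gland. Their log2 fold changes were 0.03 (standard error 0.13) and 0.11 (standard error 0.13), with limma adjusted p of 0.991 and 0.976.

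**Figure D2:**
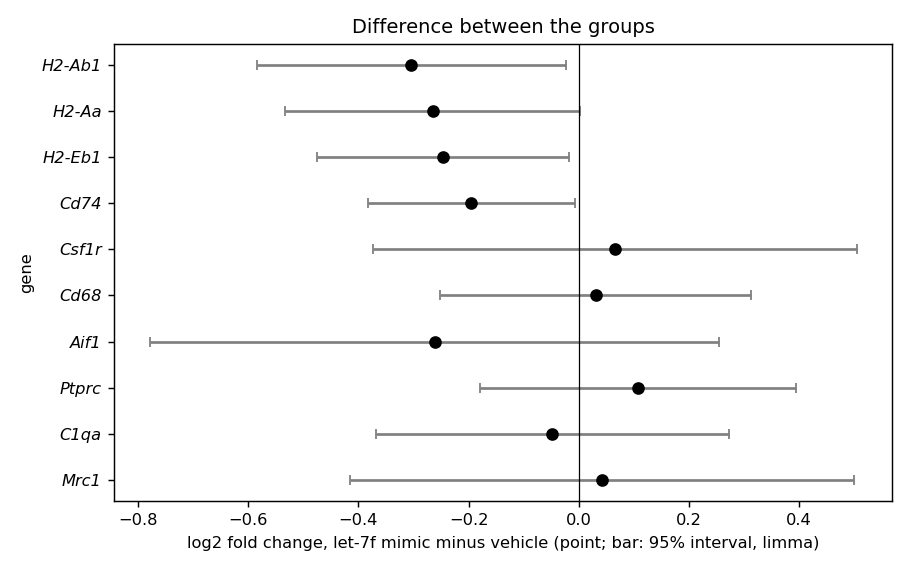
Log2 fold change of let-7f mimic against vehicle (horizontal axis) for each of the 10 genes, as points with 95% intervals from limma over 6 and 6 glands, not adjusted for the number of genes tested. The 4 class II genes lie between -0.30 and -0.20, and the intervals of H2-Aa and of the 6 other genes include 0.

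Over all 12 glands the 4 class II genes varied together, and some of the macrophage genes did so apart from them. Pearson's r of log2(count + 1) was computed for 45 pairs over the 12 glands, with permutation p adjusted over the 45, and 9 pairs passed the threshold, all positive. The 9 were all 6 class II pairs and 3 of the 15 pairs among the macrophage and leukocyte genes. None of the 24 pairs between the 2 sets passed, and their r ran from -0.37 to 0.54 with a median of 0.05. By Spearman's rho, 6 of the 45 pairs passed, 5 of them of class II. Without vehicle 1, 4 and 6 this separation was not seen: 18 pairs passed, 10 of them between the sets, and the median r between the sets was 0.69. With vehicle 3 left out as well, 0 pairs passed. Within single groups, the median r between the sets was 0.15 in the vehicle and 0.34 in the mimic glands. In the mimic glands r between the sets ran from -0.48 to 0.93. There, 3 pairs between the sets and 1 class II pair had an unadjusted exact permutation p under 0.05. In the vehicle glands r between the sets ran from -0.37 to 0.54. There, 0 pairs between the sets and 5 class II pairs were under 0.05. All of these genes share the libraries and their depth.

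Within class II, r ran from 0.77 to 0.96. The closest pair was H2-Eb1 and Cd74, with r = 0.96 and rho = 0.88 (adjusted permutation p = 0.00045 and 0.00787), and r = 0.90 without vehicle 6 and mimic 6, the glands farthest from the median. H2-Aa and Cd74 had r = 0.92 and rho = 0.96 (adjusted permutation p = 0.00045 and 0.00135). The unadjusted permutation p of that r was 1e-05, the smallest that 100000 permutations can give. The loosest class II pair was H2-Ab1 and H2-Eb1, with r = 0.77 and rho = 0.60 (adjusted permutation p = 0.0173 and 0.185). Without vehicle 3 and 6 its r was 0.44. Within the groups of 6, class II r ran from 0.75 to 0.99 in the vehicle and from 0.39 to 0.89 in the mimic glands, and no pair passed an exact permutation test adjusted over 45 pairs. With 6 glands the smallest p is 0.00139, and 1 pair alone at that p would adjust to 0.0625, so a single pair could not pass.

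To place these values among all genes, r of at least 0.7 with H2-Ab1 was reached by 2.38% of the 18389 other tested genes, with H2-Aa by 5.35%, with H2-Eb1 by 1.42% and with Cd74 by 1.82%. Each class II gene had its 3 partners among them. The genes most like H2-Ab1 over the 12 glands, outside the 10, were Loxl1 (r = 0.92), Ckap5, Tapbp, Chchd5 and Rcbtb2 (each r = 0.90). Each was closer to H2-Ab1 than its class II partners, of which the closest had r = 0.85. For H2-Aa, too, genes outside the 10 reached r of up to 0.95, above its closest partner at 0.92. For H2-Eb1 and Cd74 the closest gene was the other of the pair, at 0.96. Tapbp encodes tapasin, which loads peptides onto MHC class I.

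**Figure D3:**
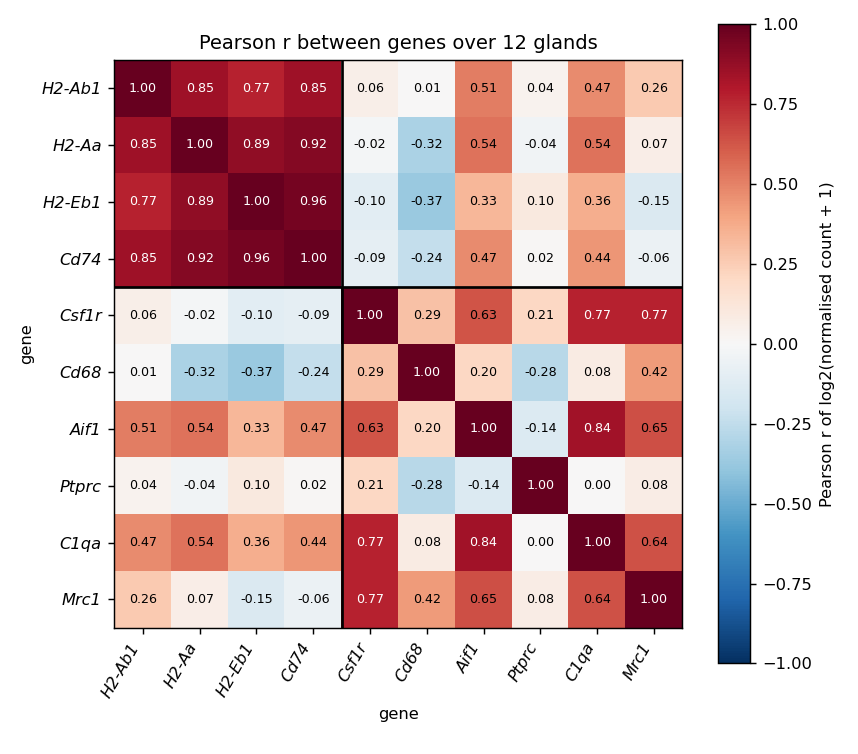
Pearson r over 12 glands between each pair of the 10 genes (both axes list the genes), on log2(normalised count + 1). Black lines part the 4 class II genes from the 6 other genes: the class II square holds r of 0.77 to 0.96, and the rectangles between the sets hold r of -0.37 to 0.54.

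Among the macrophage genes, Aif1 and C1qa had r = 0.84 and rho = 0.85 (adjusted permutation p = 0.00637 and 0.0132). Csf1r and C1qa had r = 0.77 and rho = 0.63 (adjusted permutation p = 0.0177 and 0.16), and Csf1r and Mrc1 had r = 0.77 and rho = 0.68 (adjusted permutation p = 0.0184 and 0.121). Without vehicle 3 and 5, r of these last pairs fell to 0.45 and 0.56. For the 3 pairs in this order, r was 0.96, 0.86 and 0.89 within the vehicle glands. Within the mimic glands it was 0.59, 0.41 and 0.06. The median r of all 15 pairs of this set was 0.51 in the vehicle and 0.06 in the mimic glands. Leaving out vehicle 3 alone removed all 3 macrophage pairs from those that passed and left 5 class II pairs. Cd68 and Ptprc passed with no other gene of the 10. r of at least 0.7 with Csf1r was reached by 3.62% of other genes. The genes most like Csf1r were Igfbp4 (r = 0.98), Nxn (0.97), Smo (0.97), Rgcc (0.96) and Adamts1 (0.96).

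**Figure D4:**
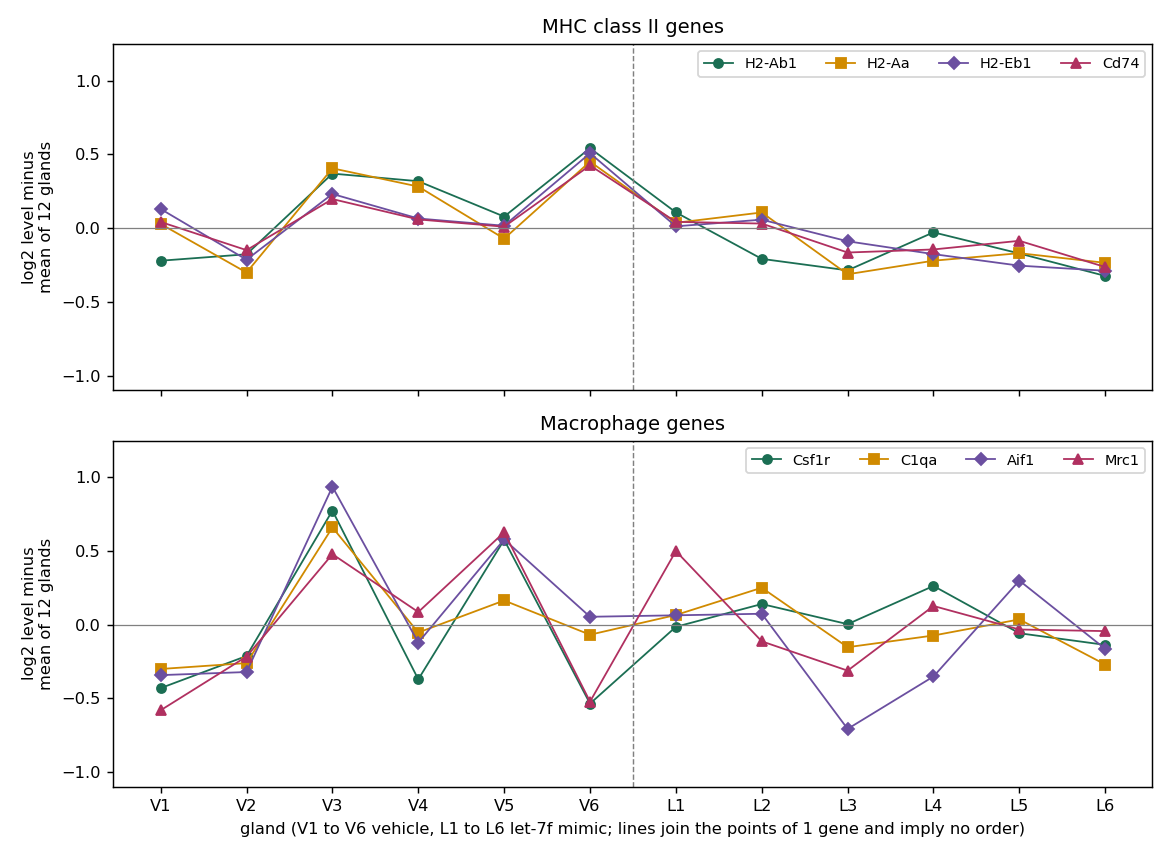
Log2 level of each gene minus its mean over the 12 glands (vertical axis), for the 4 class II genes above and for Csf1r, C1qa, Aif1 and Mrc1 below; V1 to V6 are vehicle and L1 to L6 mimic glands. Vehicle 3 is high in both panels, while vehicle 6 is high for class II and low for Csf1r and Mrc1.

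Markers of the posterior and intermediate lobes differed between the vehicle glands, and the posterior lobe markers moved with Csf1r and Mrc1. The mean log2 level of 14 posterior lobe and pituicyte genes was 6.68, 7.60 and 6.80 in vehicle 1, 4 and 6, and 8.27, 9.42 and 8.90 in vehicle 2, 3 and 5. In the mimic glands it lay between 8.29 and 8.73. Csf1r followed this level with r = 0.88 and rho = 0.90 (adjusted permutation p = 0.00877 and 0.013 over 130 relations), and with r = 0.92 without the 2 farthest glands. Its r was 0.93 within the vehicle and 0.64 within the mimic group. Mrc1 had r = 0.77 and rho = 0.76 with the same list (adjusted permutation p = 0.0337 and 0.0784). For Mrc1, r was 0.90 within the vehicle and 0.28 within the mimic group. Cd68, Aif1, Ptprc and C1qa did not pass with this list. The class II genes had r of -0.13 (H2-Ab1), -0.26 (H2-Aa), -0.44 (H2-Eb1) and -0.38 (Cd74) with it. These turned to 0.81, 0.76, 0.69 and 0.67 without vehicle 1, 4 and 6, while Csf1r kept r = 0.93 in those 9 glands. In the mimic glands alone, r of the 4 class II genes with this list was 0.25, 0.08, -0.10 and -0.14. In the vehicle glands alone it was 0.06, -0.13, -0.36 and -0.28. None of the 10 genes passed with the 3 intermediate lobe genes. Without vehicle 1, 4 and 6 the log2 fold change of Csf1r was -0.35 and that of Mrc1 was -0.28, on the other side of 0, with no call. Those of Aif1 and C1qa were -0.53 and -0.21, also with no call. The part of the lobes in these results was not tested. How large a share of all tested genes follows this list, or the lists below, was not measured.

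Of the class II genes, 3 of 4 followed another list by Pearson's r, and only H2-Eb1 also did by Spearman's rho. H2-Eb1 had r = 0.89 and rho = 0.83 with the mean level of 21 genes of MHC class I and of the interferon gamma response (adjusted permutation p = 0.00877 and 0.039 over 130 relations). Cd74 had r = 0.84 and rho = 0.77 with that list (adjusted permutation p = 0.0139 and 0.0765), and H2-Aa had r = 0.76 and rho = 0.69 (adjusted permutation p = 0.0337 and 0.122). H2-Ab1 did not pass, with r = 0.61 and rho = 0.44 (adjusted permutation p = 0.133 and 0.445). Vehicle 6 was the highest gland of the list at 10.04. Without vehicle 1, 4 and 6, r was 0.73 for H2-Eb1, 0.63 for Cd74 and 0.61 for H2-Aa. For these 3 genes r was 0.98, 0.95 and 0.86 within the vehicle and 0.67, 0.49 and 0.34 within the mimic glands. C1qa followed the list of 27 other macrophage genes with r = 0.87 and rho = 0.71 (adjusted permutation p = 0.0134 and 0.117), and its r fell to 0.54 without the 2 farthest glands. With that list Csf1r had r = 0.85 and rho = 0.78 (adjusted permutation p = 0.00877 and 0.067), and Mrc1 had r = 0.77 and rho = 0.89 (adjusted permutation p = 0.0132 and 0.013). With 9 microglia genes, Csf1r had r = 0.89 and rho = 0.88 (adjusted permutation p = 0.00877 and 0.0143). Mrc1 and C1qa had r = 0.81 and 0.79 with them (adjusted permutation p = 0.0133 and 0.0337; of rho, 0.0784 and 0.122). Within the mimic glands, r with the other macrophage genes was 0.07 for C1qa, 0.37 for Csf1r and 0.67 for Mrc1. In the vehicle glands these r were 0.99, 0.89 and 0.83. With the microglia genes, Csf1r, Mrc1 and C1qa had 0.16, 0.89 and 0.55 in the mimic and 0.96, 0.81 and 0.88 in the vehicle glands. Csf1r also followed 8 endothelial genes, with r = 0.84 and rho = 0.87 (adjusted permutation p = 0.0132 and 0.0143). C1qa and Aif1 also followed 8 monocyte and neutrophil genes, with r = 0.89 and 0.77 (adjusted permutation p = 0.0132 and 0.0368; rho = 0.68 and 0.62, adjusted permutation p = 0.122 and 0.218). That list ranged from 5.38 to 7.11 in the vehicle and from 5.29 to 6.17 in the mimic glands, none of its listed genes was at 0 in any library, and its part in the result was not tested. Mrc1 followed 7 fibroblast genes with r = 0.84 and rho = 0.82 (adjusted permutation p = 0.0132 and 0.0433). C1qa and Aif1 had r of 0.73 and 0.41 with the monocyte and neutrophil genes within the mimic glands. Within the vehicle glands these were 0.94 and 0.88. In the mimic and the vehicle glands, Csf1r had 0.44 and 0.93 with the endothelial genes, and Mrc1 0.90 and 0.89 with the fibroblast genes.

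**Figure D5:**
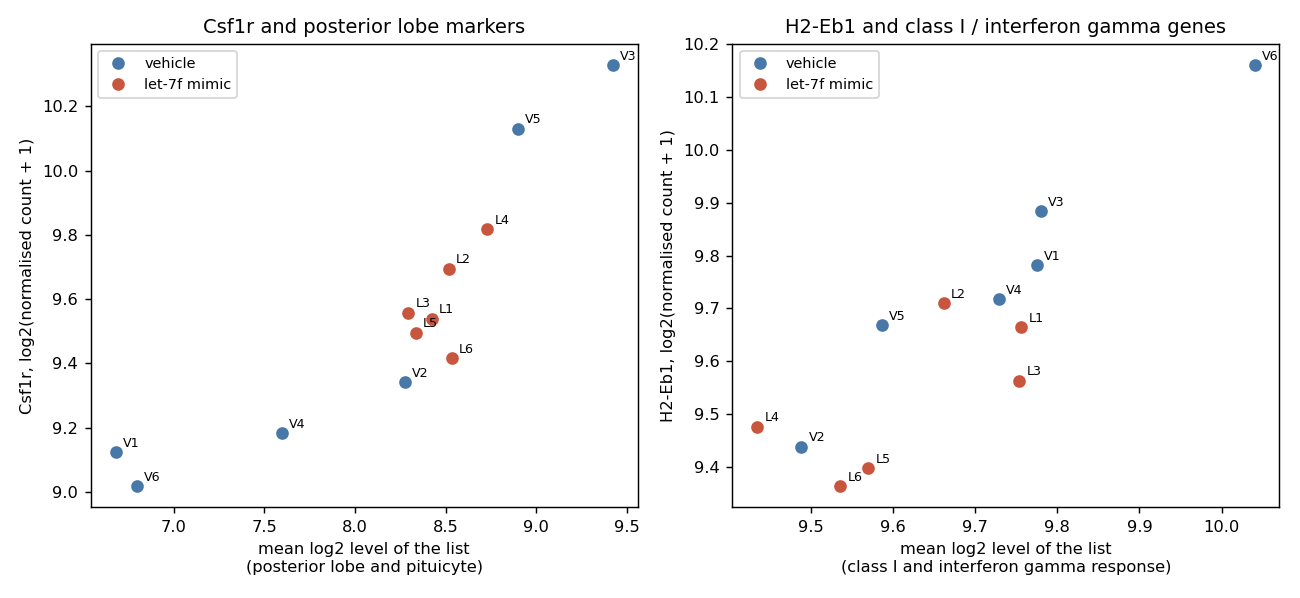
Left, Csf1r against the mean log2 level of 14 posterior lobe genes; right, H2-Eb1 against the mean log2 level of 21 class I and interferon gamma response genes; each point is 1 gland, V vehicle and L mimic. Csf1r and the posterior lobe level rise together from vehicle 1 and 6 to vehicle 3, and the mimic glands lie within 8.29 to 8.73 on the left axis.

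Of 16 tested genes for class II loading and control, 11 had higher and 5 lower means in the mimic group, with a median log2 fold change of 0.05, beside 0.00 over all genes tested, and none passed the threshold. That median was -0.06 without vehicle 1, 4 and 6. The difference between these genes and the 4 class II genes was not tested. Ciita, the transactivator, ranged from 207 to 292 counts in the vehicle and from 220 to 289 in the mimic glands, and its log2 fold change was -0.01 (standard error 0.11). H2-DMa, a chain of the peptide-loading catalyst, had a log2 fold change of -0.25 (standard error 0.14; adjusted p by limma = 0.976), with all 6 mimic glands below the vehicle mean, and -0.16 without vehicle 1, 4 and 6. Rfxap, a subunit of the factor that binds class II promoters, had a log2 fold change of 0.79 (standard error 0.28; adjusted p by limma = 0.976), with all 6 mimic glands above the vehicle mean and overlapping groups. Marchf1, a ligase that removes class II from the cell surface, had 0.53 (standard error 0.22; adjusted p by limma = 0.976), which was 0.09 without vehicle 1, 4 and 6. H2-Eb2, a paralogue of H2-Eb1, ranged from 56.4 to 226 counts in the vehicle and from 103 to 319 in the mimic glands. Vehicle 1 and 6 were its lowest glands and the groups overlapped. Its log2 fold change was 0.70 (standard error 0.36; adjusted p by limma = 0.976), and 0.23 without vehicle 1, 4 and 6.

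Of the 21 class I and interferon gamma response genes, 16 had lower and 5 higher means in the mimic group, with a median log2 fold change of -0.12 and none past the threshold. That median was -0.03 without vehicle 6 and -0.015 without vehicle 1, 4 and 6. Tapbp had -0.24 (standard error 0.08; adjusted p by limma = 0.976) and B2m, the light chain of class I, -0.26 (standard error 0.12; adjusted p by limma = 0.976). These were -0.14 and -0.09 without vehicle 1, 4 and 6. Of the 27 other macrophage genes, 17 had lower and 10 higher means, with a median of -0.05, which was -0.19 without vehicle 1, 4 and 6, and none past the threshold. Adgre1, the F4/80 antigen, had a log2 fold change of -0.0046 and Cx3cr1, the fractalkine receptor, 0.11. Both depend on the vehicle glands taken. Cx3cr1 had 268, 261 and 295 counts in vehicle 1, 4 and 6. It had 335, 558 and 438 in vehicle 2, 3 and 5, and 314 to 422 in the mimic glands. For Adgre1 these were 169, 136 and 138, then 147, 239 and 173, and 118 to 204. Of 6 macrophage growth factor and receptor genes, 5 had lower means, among them Il34 (-0.30, standard error 0.24), a ligand of Csf1r, and Csf1, the other ligand (-0.02, standard error 0.15), and none passed the threshold.

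Markers of other cells that carry class II gave no call. Of 8 dendritic cell genes, 4 had lower and 4 higher means, and the mean log2 level of the list ranged from 6.31 to 7.03 in the vehicle and from 6.49 to 6.75 in the mimic glands. Irf4, a transcription factor of dendritic and B cells, ranged from 6.72 counts in vehicle 6 to 137 in vehicle 4 with a median of 31.0, and from 4.94 to 15.9 in the mimic glands with a median of 9.75. All 6 mimic glands lay below the vehicle mean and the groups overlapped. The means were 46.8 ± 50.1 and 9.65 ± 3.66 (SD, n = 6 each), and limma gave a log2 fold change of -1.50 (standard error 0.61; adjusted p by limma = 0.976). Of 7 B cell genes, 4 had lower and 3 higher means, and the list ranged from 4.87 to 6.33 and from 4.90 to 5.89. No listed gene of the dendritic list was at 0 in any library, and 1 of the B cell list was. Of 9 microglia genes, 6 had higher and 3 lower means. The mean log2 level of the microglia list was 8.18, 8.18 and 8.07 in vehicle 1, 4 and 6. It was 8.25, 8.70 and 8.44 in vehicle 2, 3 and 5, and 8.29 to 8.50 in the mimic glands. None of these lists held a gene past the threshold, and their part in the class II values was not tested.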

How the data were processed

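Per the submitters' processing notes, Trimmomatic 0.39, kallisto 0.50.1, DESeq2 1.48.2, FastQC 0.12.1, MultiQC 1.28 and GRCm39 were used. The authors deposited 1 table of signal per gene: normalised read counts, 1 column per gland. In 10 columns (6 vehicle, 4 mimic) whole reads were recovered from the step of the values, and all values were whole within 0.001. They summed to 26378308 to 37061136 reads over named genes. The steps of mimic 3 and 5 were too close to 1 for this to be accepted, so these 2 entered no count test, and their normalised counts summed to 30069599 and 31353197. A row with no gene name held at most 0.0567% of reads and was left out. No 2 libraries agreed within counting error. Depth limits only the lower genes: counting error was 12.9% for Aif1 in the vehicle group.

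The test was limma-trend (limma 3.58.1, R 4.3.3) on log2(value + 1), for the 18390 genes that reached 10 in 6 or more libraries, two-sided, Benjamini-Hochberg threshold 0.05, with no covariates. Fold changes are on that scale and understate changes of low genes. P-values measure the spread between these glands, whose litters are unknown. edgeR 4.0.16 and DESeq2 1.42.0 were alternatives on the 10 libraries. Correlations used SciPy 1.17.1, NumPy 2.4.6 and 100000 permutations (exact within groups). Scripts were tested on simulated data. Exon lengths and 3' UTRs came from GENCODE M21 (GRCm38) by symbol (92.5% of symbols matched), with 1 transcript per gene for UTRs. The promoter table used here, from RefSeq, had windows for 6 of the 10 genes.

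The genes and lists were chosen with earlier results of these data known. Genes named outside the 10 are up to 3 of smallest p per list, the 5 most like H2-Ab1 and Csf1r, and a few set by name. Alternatives were other pseudocounts, filters, scalings, tools, a replicate block, a posterior lobe covariate and leaving out libraries. The replicate numbers did not pair the glands.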

Additional observations from a re-analysis of the deposited data

Results flagged for a closer look

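Of 156 sets of 6 values tested for a gland standing apart from its group, 10 were found, where chance gives about 7.8, and none was of the 10 genes themselves. Vehicle 3 was high for 3 genes of the macrophage and class II lists: C1qc at 480.8 normalised counts (other vehicle glands 231.2 to 319.5), Adgre1 at 239.4 (135.9 to 173.2) and H2-DMb1 at 193.9 (66.59 to 107.4). H2-DMb2 is a paralogue of the last, and how the counting treated reads that match both was not measured. In the mimic group, C1qb was low in mimic 3 at 240.3 counts (288.2 to 309.3 in the others) and Tapbp was low in mimic 6 at 4104 (4765 to 5002). Mimic 4 was high for Mt3 at 407.5 counts (269.0 to 317.1) and for the mean log2 level of the T and NK cell list at 6.104 (5.775 to 5.898), and low for Tshb at 3816 counts (5863 to 6697). Mimic 2 was high for Slc4a1 at 187.5 counts (9.89 to 38.38) and for Flt1 at 4081 counts (837.7 to 1244).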

How the results depend on the processing

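No gene of the 10 passed the threshold under any of 25 alternatives. For the 4 class II genes, all 100 alternative values kept their sign. These are refits of the same glands for genes that varied together, so they are not 100 separate results. Some settings, such as the filters, the robust variance and the replicate block, left the log2 fold change of these genes unchanged. Over all genes, limma and edgeR called 0 under each alternative, and DESeq2 on 10 libraries called 3 (Kit, Hmcn2 and Uba7, named after their values were seen). edgeR and DESeq2 had been planned on all libraries and were run, as a choice made after seeing the data, on the 10 with accepted reads, with limma on the same 10 beside them. In those 3 fits 0 of the 10 genes had an unadjusted p under 0.05. The replicate numbers did not pair the glands (r of deviations for same-numbered glands -0.15 to 0.09, and only number 6 was its own best partner). With the replicate block, 0 genes were called, and 0 of the 10.

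Signs near 0 turned. With the posterior lobe covariate, the log2 fold change was -0.18 for Csf1r, -0.0086 for Cd68 and -0.17 for Mrc1. Without vehicle 1, 4 and 6, a choice made after seeing the data, it was -0.35, -0.040 and -0.28. Cd68 was -0.0052 after quantile normalisation and -0.0859, -0.0858 and -0.0795 in edgeR, DESeq2 and limma on 10 libraries. Leaving out 1 library at a time gave ranges of -0.0345 to 0.228 for Csf1r, -0.0413 to 0.0951 for Cd68, -0.113 to 0.0797 for C1qa, -0.0696 to 0.172 for Mrc1 and -0.0589 to 0.0462 for Ciita. It gave 0 calls throughout. The cause was not tested.

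The 9 correlated pairs became 18 without vehicle 1, 4 and 6 and 0 without vehicle 1, 3, 4 and 6, where 8 glands were left. They ranged from 5 (without vehicle 3) to 10 when 1 library was left out, and were 6 without vehicle 6. The 15 relations with marker lists that passed, of 130, became 25 on deviations from the group means and 6 by Spearman's rho. The share of all tested genes that would pass with these lists was not measured, so these counts have no background beside them. The relations that passed ranged from 9 (without vehicle 1) to 23 (without vehicle 6).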
